A study of Mus musculus with 6 samples.

Results

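The megakaryocyte and platelet genes Itga2b, Gp5, Gp9, Pf4, Cd9, Rab27b and Nrgn were followed through every probe set that the deposited table lists under 1 of these symbols alone. These were 7 of the 13146 genes that the table names, and 10 of its 28821 probe sets. Rab27b had 4 probe sets and each of the other 6 genes had 1. The arrays (Affymetrix Mouse430_2) measured RNA of sorted Lin-/Sca1-/cKit+ cells, a fraction that lacks lineage markers and Sca1, carries the receptor Kit and normally holds committed myeloid progenitors. The 3 leukemia samples came from spleens of MF1 mice that had been lethally irradiated and given hematopoietic progenitors transduced with AE9a, a truncated AML1-ETO fusion protein, with 1 numbered mouse per sample. The 3 wild-type samples came from bone marrow of MF1 mice with the wild-type genotype. Mice of both groups were 12 to 16 weeks old. Irradiation and transplant are given for the leukemia mice only. Leukemia, the spleen as source, irradiation and the transplant of transduced cells cannot be told apart in this design. The labels do not say whether the sorted leukemia cells were also chosen for the transgene, or whether wild-type animals were pooled, so each p-value covers the spread of these 6 samples and no more.

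Megakaryocytes arise from progenitors shared with the red cell line and shed platelets into the blood. They are known by surface receptors that bind fibrinogen and von Willebrand factor, by alpha granules filled with chemokines and adhesive proteins, and by dense granules. GATA and ETS family transcription factors together with RUNX1, which is also called AML1 and gives the fusion its AML1 part, are known regulators of these genes. Several of the 7 genes are not restricted to this lineage. Itga2b (the integrin chain CD41) is also found on early progenitors, Rab27b also acts in granule secretion of mast cells, and Nrgn is best known from neurons.

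The 7 genes split in direction in the leukemia cells. Cd9, Pf4, Itga2b and Gp9 fell, Gp5 and Rab27b rose, and Nrgn did not pass the test. Of the 10 probe sets 9 were bright enough to be tested, which required at least 3 of the 6 arrays to lie at or above the 40th percentile of the whole array. Of these 9, 4 were lower, 3 were higher and 2 did not pass (limma, adjusted p under 0.05 over all tested probe sets). The same test called 6946 of 18098 tested probe sets, or 38.4%, with 17.5% higher and 20.9% lower. Leukemia and wild-type values were fully separate for 7 of the 9 members, as they were for 56.6% of all tested probe sets. Cd9 is in both member counts, but it entered the test through its wild-type arrays alone and so had to differ. The members were also chosen with earlier results of these data known, so these counts are not a test of the group. Without wild-type replicate 2 the test called 4404 probe sets over the whole table and without wild-type replicate 3 it called 4393, while the same 7 member probe sets were called in each case. In such bulk samples fewer cells of a type and less RNA per cell cannot be told apart.

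**Figure D1:**
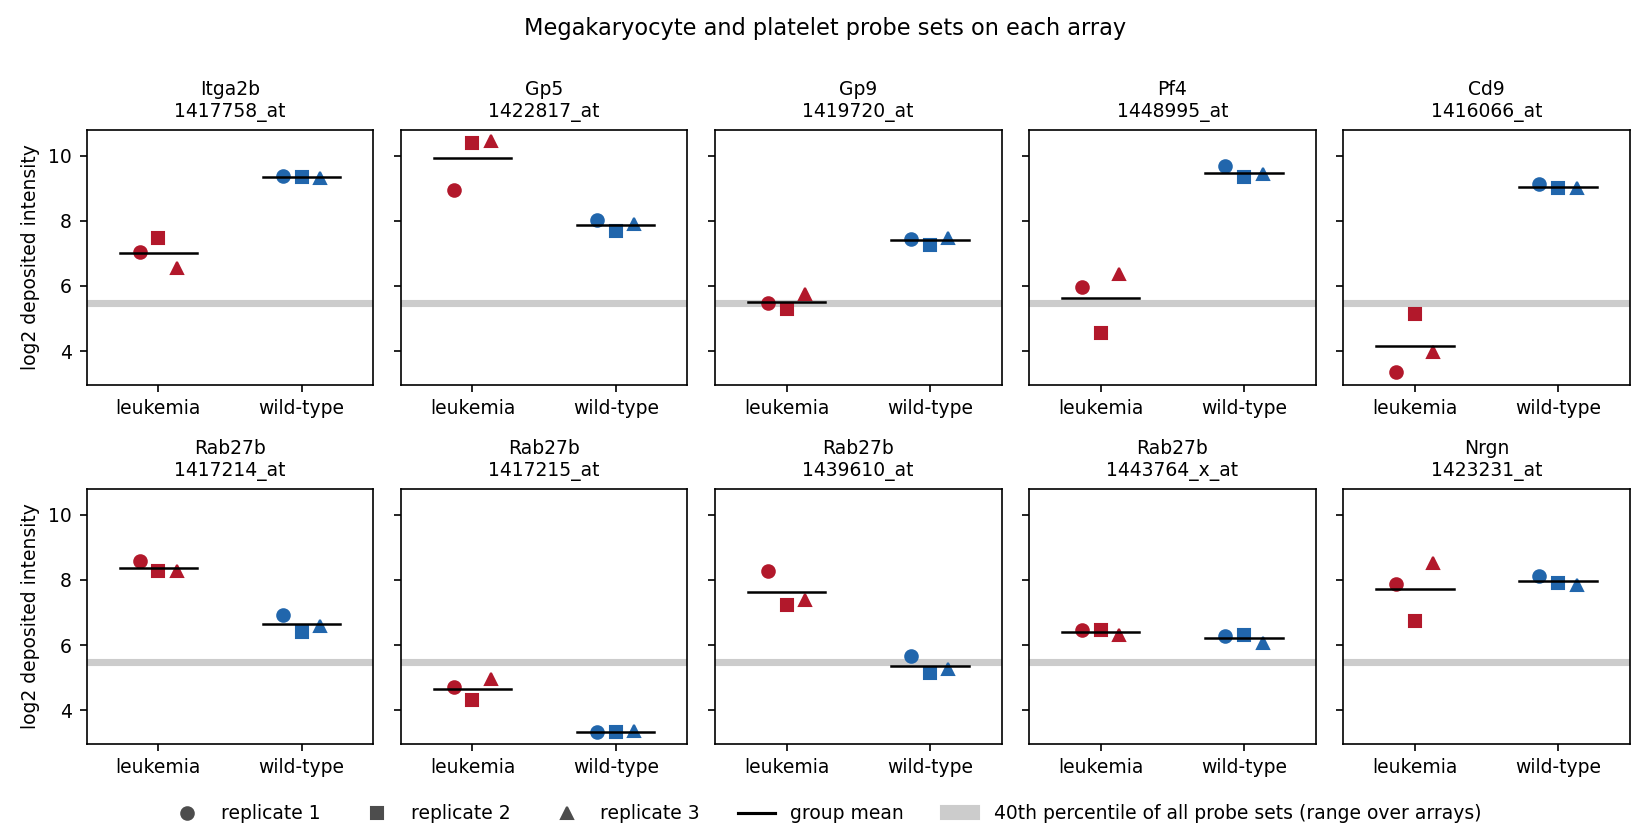
Log2 deposited intensity of the 10 probe sets on each array, with leukemia (red) left of wild-type (blue), symbols for replicates, black lines for group means and a grey band for the 40th percentile of all probe sets. The leukemia values of Cd9 lie below the band and its wild-type values between 9.01 and 9.13, whereas Gp5 and Rab27b 1417214_at lie higher in leukemia.

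The sequences upstream of 5 changed genes are shown because GATA, ETS and RUNX factors are known to act on megakaryocyte promoters. Gp5 is the only one of these 5 that rose, and a sequence of Rab27b is not used here. Each is the 250 bases before the annotated gene start (RefSeq, GRCm38.p6), 5′ to 3′ on the gene's strand. Capitals mark matches on either strand to a GATA word (AGATAA or AGATAG or TGATAA or TGATAG), an ETS word (AGGAAG or CGGAAG or AGGAAA or CGGAAA) or the RUNX word TGTGGT, and matches that overlap run together. These words were chosen after the member sequences had been seen, GATA and ETS words in Gp5 among them, so that no count of matches is evidence of its own.
Gp5, chr16:30310782-30311031, minus strand: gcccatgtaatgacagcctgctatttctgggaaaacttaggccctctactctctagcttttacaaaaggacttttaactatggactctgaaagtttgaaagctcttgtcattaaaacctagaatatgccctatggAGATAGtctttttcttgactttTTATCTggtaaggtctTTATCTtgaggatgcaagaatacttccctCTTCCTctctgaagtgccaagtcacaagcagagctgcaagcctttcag
Itga2b, chr11:102469884-102470133, minus strand: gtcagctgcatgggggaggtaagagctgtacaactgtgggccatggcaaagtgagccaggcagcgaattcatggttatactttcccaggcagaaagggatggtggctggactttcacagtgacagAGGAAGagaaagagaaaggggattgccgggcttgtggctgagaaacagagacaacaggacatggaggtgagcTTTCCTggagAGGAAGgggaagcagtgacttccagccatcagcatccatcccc
Gp9, chr6:87777820-87778069, plus strand: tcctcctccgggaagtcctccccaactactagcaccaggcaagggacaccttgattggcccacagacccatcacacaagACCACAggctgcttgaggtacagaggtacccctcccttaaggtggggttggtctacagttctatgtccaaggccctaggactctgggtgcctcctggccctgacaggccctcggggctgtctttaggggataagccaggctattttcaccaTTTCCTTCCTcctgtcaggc
Pf4, chr5:90772185-90772434, plus strand: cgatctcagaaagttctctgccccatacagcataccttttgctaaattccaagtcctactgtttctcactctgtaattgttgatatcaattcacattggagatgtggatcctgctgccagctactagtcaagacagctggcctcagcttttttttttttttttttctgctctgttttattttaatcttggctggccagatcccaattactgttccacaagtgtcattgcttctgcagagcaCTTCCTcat
Cd9, chr6:125494761-125495010, minus strand: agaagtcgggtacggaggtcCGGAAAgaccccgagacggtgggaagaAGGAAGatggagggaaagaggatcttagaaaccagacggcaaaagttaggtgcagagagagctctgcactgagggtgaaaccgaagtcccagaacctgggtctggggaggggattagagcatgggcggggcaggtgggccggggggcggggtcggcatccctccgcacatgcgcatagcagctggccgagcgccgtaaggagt

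Among these 5 windows and that of Nrgn, 1 of 6 held a GATA word, 5 of 6 an ETS word and 1 of 6 the RUNX word. Of all 32851 such windows in the RefSeq set, 26.5% held a GATA word, 57.2% an ETS word and 14.0% the RUNX word. Gp5, which rose, had 3 GATA words, starting 115, 93 and 77 bases before its annotated start, and 1 ETS word starting 48 bases before it. A GATA and an ETS word occur together in 15.0% of all windows. Itga2b had 3 ETS words, Gp9 had 2 that overlap and Pf4 had 1, which starts 9 bases before the gene start. The RUNX word lay in the window of Gp9, and Nrgn had no match. A match is a description of letters and no measure of binding.

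**Figure D2:**
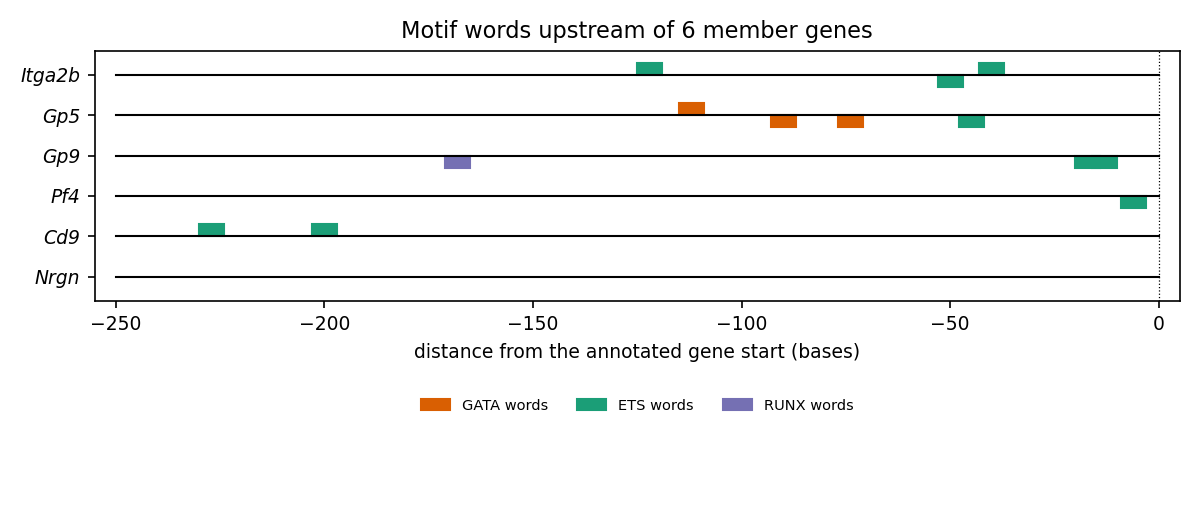
Positions of GATA (orange), ETS (green) and RUNX (purple) words in the 250 bases before the annotated start of 6 member genes, as distance from that start in bases, with boxes above the line for the gene's strand and below it for the other. Gp5 holds 3 GATA words, and the other genes hold none.

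The receptor genes were measured first for the von Willebrand factor receptor, the GPIb-IX-V complex. Gp5 encodes its glycoprotein V, a leucine-rich subunit that thrombin can cleave. Its probe set 1422817_at was at 8.94, 10.39 and 10.44 log2 on leukemia arrays 1, 2 and 3, against 8.03, 7.70 and 7.90 log2 on wild-type arrays 1, 2 and 3. Every leukemia array lay above every wild-type array, with leukemia replicate 1 closest to them. Gp5 averaged 9.92 ± 0.85 log2 in leukemia and 7.87 ± 0.17 log2 in wild-type (SD, n = 3 each), a 4.14-fold rise (log2 change 2.05 ± 0.39 SE, limma adjusted p = 0.00669). With the fluidics run as a covariate, the change was 1.07 (limma adjusted p = 0.00232). Leukemia replicate 1 was the only leukemia array in the run of the wild-type arrays, so this value, like every other one with the run as a covariate, is that of 1 array against the wild-type mean. Without that array the change was 2.54.

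Gp9 encodes glycoprotein IX, a small subunit needed for the complex to reach the cell surface. Its probe set 1419720_at gave 5.48, 5.28 and 5.75 log2 on the leukemia arrays, against 7.45, 7.27 and 7.48 log2 on the wild-type arrays. The groups did not overlap, and the leukemia values lay around the 40th percentile of their arrays, with 2 of 3 at or above it. The change was -1.90 ± 0.17 SE (3.73-fold lower in leukemia, limma adjusted p = 2.63e-04). The genes of glycoproteins V and IX therefore moved in opposite directions between the same arrays, with 95% intervals of the change from 1.12 to 2.98 for Gp5 and from -2.31 to -1.49 for Gp9. Gp1bb, which encodes another chain of the complex, was not tested as dim, with means of 5.18 log2 in leukemia and 5.44 log2 in wild-type.

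Itga2b encodes the alpha chain of the platelet fibrinogen receptor, integrin alpha-IIb beta-3. Its probe set 1417758_at was at 7.05, 7.47 and 6.55 log2 on the leukemia arrays, against 9.37, 9.35 and 9.31 log2 on the wild-type arrays. The wild-type arrays lay within 0.06 of each other and each was above every leukemia array. The mean was 7.02 ± 0.46 log2 in leukemia and 9.34 ± 0.03 log2 in wild-type (SD, n = 3 each), a 4.99-fold fall (log2 change -2.32 ± 0.23 SE, limma adjusted p = 3.87e-04). All 3 leukemia values stayed above the 40th percentile, at the 53.0th to 64.7th percentile of their arrays, against the 85.8th to 86.7th percentile in wild-type. Itgb3, the gene of its beta chain, was dim, with means of 4.35 log2 in leukemia and 5.48 log2 in wild-type, and was not tested. Of other integrin genes, Itgb1 rose by 1.44 (limma adjusted p = 9.18e-04), and Itga6 had a change of 0.39 that did not pass (limma adjusted p = 0.0627). The change of Itga6 ran from 0.28 to 0.61 over the alternatives. It was called under 2 of them, among them the fit without leukemia replicate 2 (change 0.51, limma adjusted p = 0.0260).

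Cd9 encodes a tetraspanin, a membrane protein that groups receptors such as integrins and that is abundant on platelets. Its probe set 1416066_at gave 3.35, 5.13 and 3.98 log2 on the leukemia arrays, against 9.13, 9.01 and 9.01 log2 on the wild-type arrays. This was the largest change among the members, with every leukemia array below the 40th percentile of its own array. Cd9 averaged 4.15 ± 0.90 log2 in leukemia and 9.05 ± 0.07 log2 in wild-type (SD, n = 3 each), which is 29.8-fold lower in leukemia (log2 change -4.90 ± 0.42 SE, limma adjusted p = 1.92e-04). It entered the test through its wild-type arrays alone, and a probe set that enters so had to differ. Of all tested probe sets 0.481% had a lower change. Because the leukemia values are dim, the size depends on background, and with 16 added before the log the change was -3.97 (limma adjusted p = 4.39e-05). With the fluidics run as a covariate it was -5.70 (limma adjusted p = 2.79e-04), the value of leukemia replicate 1 alone.

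Pf4 encodes platelet factor 4, a CXC chemokine stored in alpha granules. Its probe set 1448995_at was at 5.97, 4.55 and 6.36 log2 on the leukemia arrays, against 9.67, 9.34 and 9.43 log2 on the wild-type arrays. Leukemia replicate 2 was the lowest and the only one below the 40th percentile, and the groups did not overlap. The mean was 5.63 ± 0.95 log2 in leukemia and 9.48 ± 0.17 log2 in wild-type (SD, n = 3 each), a 14.5-fold fall (log2 change -3.85 ± 0.44 SE, limma adjusted p = 7.23e-04). On the deposited linear scale Pf4 ranged from 23.4 to 82.2 in leukemia, against 647.8 to 816.9 in wild-type.

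Rab27b encodes a small GTPase that brings secretory granules to the plasma membrane, with a known role in dense granules of platelets. Its brightest probe set, 1417214_at, gave 8.58, 8.26 and 8.27 log2 on the leukemia arrays, against 6.92, 6.41 and 6.60 log2 on the wild-type arrays. The leukemia arrays lay close together and all above the wild-type arrays, a 3.31-fold rise (log2 change 1.73 ± 0.18 SE, limma adjusted p = 5.25e-04). Rab27b 1439610_at was at 8.27, 7.23 and 7.37 log2 on the leukemia arrays, against 5.67, 5.13 and 5.28 log2 on the wild-type arrays. It rose by 2.26 ± 0.30 SE (limma adjusted p = 0.00149), or by 2.91 with the fluidics run as a covariate, again the value of leukemia replicate 1 alone. Only 1 wild-type array of this probe set reached the 40th percentile, and with 16 added before the log its change was 1.90. The third, 1417215_at, lay below the 40th percentile on every array and was not tested. Its values were 4.70, 4.32 and 4.95 log2 in leukemia, against 3.33, 3.34 and 3.37 log2 in wild-type, and without the filter on dim probe sets it was higher by 1.31 (limma adjusted p = 0.00172). The fourth, 1443764_x_at, whose suffix marks probes that may also match other transcripts, was at 6.45, 6.46 and 6.30 log2 in leukemia, against 6.27, 6.31 and 6.06 log2 in wild-type. Its ranges overlapped, and the change of 0.19 did not pass (limma adjusted p = 0.341, 95% interval -0.16 to 0.54). All 4 probe sets of Rab27b were thus higher on average in leukemia, but they disagreed in size.

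Nrgn encodes neurogranin, a small calmodulin-binding protein found in neurons and in platelets. Its probe set 1423231_at gave 7.86, 6.74 and 8.53 log2 on the leukemia arrays, against 8.12, 7.92 and 7.86 log2 on the wild-type arrays. The leukemia values enclosed the wild-type values, so that the groups overlapped. The mean was 7.71 ± 0.90 log2 in leukemia and 7.96 ± 0.14 log2 in wild-type (SD, n = 3 each), and the change of -0.25 did not pass (limma adjusted p = 0.654). Its 95% interval from -1.24 to 0.73 includes a more than 2-fold fall. Without leukemia replicate 2 the change turned to 0.23 (limma adjusted p = 0.465).

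**Figure D3:**
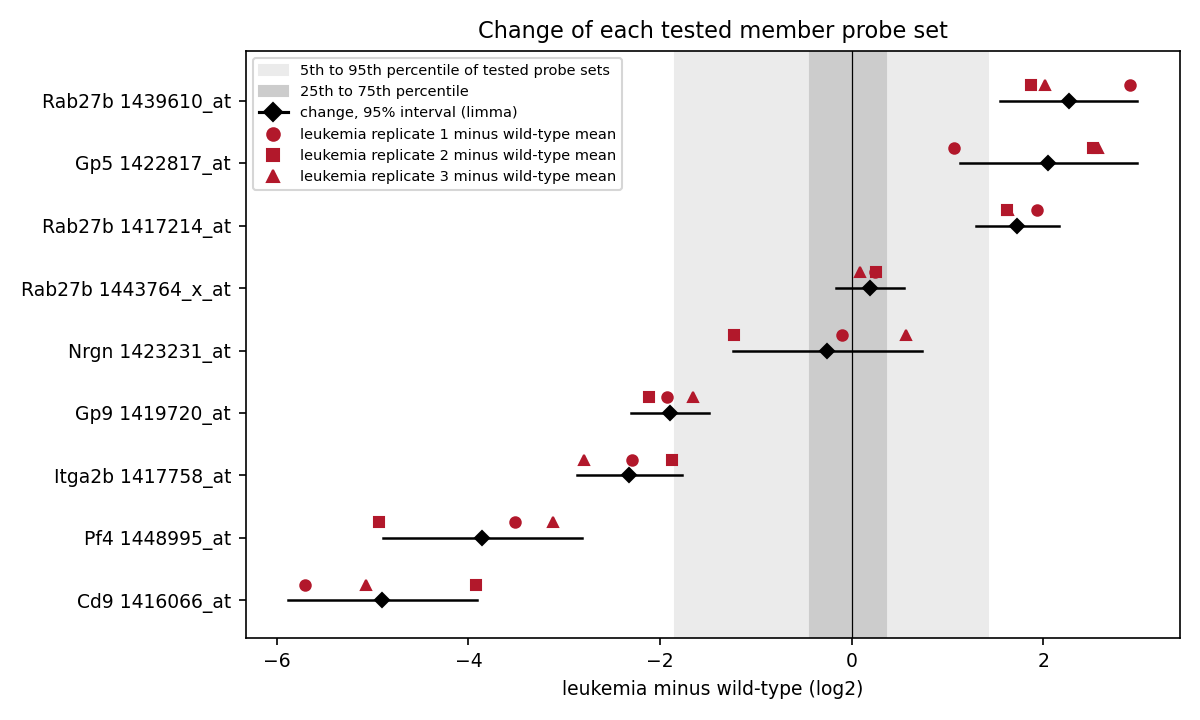
Leukemia minus wild-type change on the log2 scale for the 9 tested probe sets, with black diamonds and lines for the change and its 95% interval and red symbols for each leukemia array minus the wild-type mean. Cd9, Pf4, Itga2b and Gp9 lie below -1.84, the 5th percentile of all tested probe sets (grey), while Gp5 and 2 probe sets of Rab27b lie above 1.42, the 95th.

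The leukemia arrays also differed among themselves, and not in 1 shared order. Pf4, Gp9 and Nrgn were each lowest on leukemia replicate 2 and highest on leukemia replicate 3. Cd9 and Itga2b were both highest on leukemia replicate 2. Gp5 was lowest on leukemia replicate 1, where both called Rab27b probe sets were highest. The SD over the leukemia arrays of Gp5, Pf4, Cd9 and Nrgn was larger than that of 95.6% to 96.8% of tested probe sets, while that of Rab27b 1417214_at was larger than that of 38.1%.

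Some measures outside these genes moved with the groups. A control probe set at the 5' end of 18S rRNA was at 11.1 to 12.3 log2 in leukemia, against 7.77 to 9.41 log2 in wild-type (exact two-sided permutation test, p = 0.1, which is the lowest value reachable with 3 arrays a group). For Gapdh the excess of the 3' over the 5' control probe set, a sign of RNA length, was 0.23 higher in leukemia on the log2 scale (exact permutation p = 0.1), and both were highest on leukemia replicate 1. The same measure for Actb was 0.03 higher in leukemia, with overlapping groups (exact permutation p = 0.9). Leukemia replicate 1 also had the lowest weight when limma weighted the arrays, 0.193 against 0.874 to 2.43. Of 11 granulocyte and monocyte markers 8 fell, 0 rose and 3 were not tested. Mpo, Elane, Csf1r, Csf3r, Lyz1 and Lyz2, which fell, were among 9 that were dim on every leukemia array. The 11 markers had a summed intensity of 204.1 to 322.5 in leukemia and of 29772 to 39168 in wild-type. Of 11 mast cell and basophil markers 5 rose, 1 fell and 3 were not tested. Their summed intensity was 14165 to 26606 in leukemia and 5519 to 6288 in wild-type. Mcpt8, which fell, and Tpsb2 were dim on every leukemia array, and Cd200r3, which rose, was dim on every wild-type array. Of 10 erythroid markers 5 rose, 0 fell and 1 was not tested, with sums of 21928 to 29426 in leukemia and of 17558 to 24012 in wild-type. Alas2, Slc4a1 and Epb42, which rose, were dim on every wild-type array, and Hbb-b2 was dim on all arrays. As with Cd9, a tested marker that was dim on every array of 1 group had to differ. Over all 9715 tested genes 16.6% were higher and 24.7% lower. The 3 T and NK cell markers and 4 of the 5 B cell markers in the table were dim on every leukemia array. Of 8 endothelial and stromal markers 5 were dim on every leukemia array and 4 on every wild-type array. Of these 8, Tek rose by 2.51 (limma adjusted p = 0.00579), or by 1.41 with the run as a covariate. Pecam1 fell by 4.61 (limma adjusted p = 1.51e-05). It was dim on every leukemia array and so had to differ, and its change ran from -4.75 to -3.51 over the alternatives. The summed intensity of the 8 markers was 260.5 to 679.8 in leukemia and 533.9 to 554.3 in wild-type. The sum over the 7 megakaryocyte and platelet genes was 1355 to 2310 in leukemia and 2506 to 2874 in wild-type. Gp5 alone, which rose, gave 491 to 1387 of it in leukemia and 207 to 261 in wild-type. The part of these shifts in the member values was not tested. Of the markers that the sort names, Kit by its brighter probe set was lower in leukemia (9.64 log2 in leukemia and 10.39 log2 in wild-type), while its other probe set had a change of 0.72 that did not pass (limma adjusted p = 0.201). Cd34, which the sort does not name, was lower too, at 7.51 log2 in leukemia and 11.11 log2 in wild-type. Ptprc, the gene of the leukocyte antigen CD45 and also not named in the sort, was dim on every leukemia array (2.92 to 3.46 log2, against 10.61 to 10.99 log2 in wild-type). The gene of the sort marker Sca1 was not analysed here.

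Other genes of the lineage were followed in 8 lists, each gene by its brightest probe set. Over all 9715 tested genes 41.2% changed, 16.6% higher and 24.7% lower, with a median change of -0.09. As with Cd9, a gene that is dim on every array of 1 group entered the test through the other group alone and had to differ, and its change is set against background. Among adhesion and activation receptors 18 of 24 listed genes were in the table and 9 were tested, of which 5 rose and 1 fell, with a median of 0.86. With no filter on dim probe sets 4 rose and 3 fell of 18, and without any 1 of the wild-type arrays 3 rose and 1 fell. Ptgir, the prostacyclin receptor, which restrains platelets, averaged 8.73 ± 0.60 log2 in leukemia and 4.47 ± 0.13 log2 in wild-type (SD, n = 3 each; change 4.26, limma adjusted p = 7.97e-05). It was dim on every wild-type array, and with 16 added before the log its change was 3.53. F2r, a thrombin receptor, rose by 1.86, and Tbxa2r, the thromboxane receptor, fell by 0.89. Clec1b, the podoplanin receptor, was at 8.06, 4.90 and 6.14 log2 on the leukemia arrays, against 4.63, 4.86 and 5.51 log2 on the wild-type arrays. It was bright enough on 2 leukemia arrays and on 0 wild-type arrays, and so was not tested.

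Of 10 tested alpha granule cargo genes 6 fell and 3 rose, with a median change of -0.86. Of the 6 that fell 4 (Angpt1, Ppbp, Vwf and Selp) were dim on every leukemia array. With the filter set on the mean over the 6 arrays 3 fell and 3 rose of 6, at the 60th percentile 3 fell and 1 rose of 4, and with no filter 10 fell and 3 rose of 19. F13a1, a coagulation factor subunit that monocytes also make, averaged 5.36 ± 0.41 log2 in leukemia and 11.68 ± 0.43 log2 in wild-type (SD, n = 3 each). Angpt1, a ligand of the receptor Tek, fell by 4.77. Ppbp, a chemokine gene related to Pf4, fell by 2.92, Vwf fell by 2.25 and Selp, the gene of P-selectin, fell by 1.11. With 16 added before the log these changes were -3.92 for Angpt1, -2.11 for Ppbp, -1.54 for Vwf and -0.76 for Selp. Pros1, an anticoagulant protein, rose by 0.91 and Treml1, a receptor of alpha granule membranes, rose by 0.77. The call of Pros1 was lost without wild-type replicate 1 (limma adjusted p = 0.0559), without wild-type replicate 3 (0.0533) and with the run as a covariate (0.0741, change 0.51). That of Treml1 was lost without wild-type replicates 1, 2 or 3 (limma adjusted p = 0.0600, 0.0972 and 0.0944), with the replicate block (0.0560) and with the run (0.152, change 0.50).

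Of 24 tested genes of platelet granule formation and secretion 8 fell, 3 rose and 13 did not pass, with a median of -0.43. Of the 8 that fell 3 were dim on every leukemia array, Rab32 and Sytl4 among them, and at the 60th percentile 4 fell and 3 rose of 18. Rab32, a GTPase of dense granule and melanosome formation, fell by 3.43. Sytl4, a Rab27 effector (granuphilin), fell by 2.42, and Rab27a, the close relative of Rab27b, fell by 0.72 (limma adjusted p = 0.0387). The call of Rab27a was lost without wild-type replicates 1, 2 or 3 (limma adjusted p = 0.0707, 0.136 and 0.0970), without leukemia replicate 2 (0.0696), with the replicate block (0.0844) and with the run (0.153). With 16 added before the log the change of Sytl4 was -1.53 and that of Rab32 was -2.68. The membrane fusion proteins Snap23 and Stx11 rose by 1.61 and 1.15, and with the run as a covariate Snap23 rose by 1.01.

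Of 23 tested transcription factor genes 9 fell and 4 rose, with a median of -0.45. Without any 1 of the wild-type arrays 7 to 9 fell and 1 to 3 rose. Mef2c averaged 3.29 ± 0.45 log2 in leukemia and 9.69 ± 0.30 log2 in wild-type (SD, n = 3 each), and Meis1, a partner of HOX proteins, fell by 4.64. Both were dim on every leukemia array, and with 16 added before the log the changes were -5.01 for Mef2c and -3.22 for Meis1. Ets1 rose by 2.36. Of other ETS family genes in this list, Fli1 rose by 0.70 (limma adjusted p = 0.0156), while Erg fell by 2.90 (0.00125) and Etv6 by 1.74 (4.80e-04). Gata1 (change 0.45, limma adjusted p = 0.112) and Gata2 (-0.11, 0.782) did not pass. Runx1 rose by 1.71 (limma adjusted p = 0.0284). That call was lost without leukemia replicate 2 (limma adjusted p = 0.0515), leukemia replicate 3 (0.0630), wild-type replicate 2 (0.0893) and wild-type replicate 3 (0.101), with the replicate block (0.0508) and with the run (0.213, change 0.72). The change without leukemia replicate 2 was 1.25. All 5 further probe sets of Runx1 were called higher, with changes from 0.96 to 1.85 (limma adjusted p from 0.00130 to 0.0286).

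Of 20 tested cytoskeleton genes 6 fell and 4 rose (median -0.14). Flna and Actn1, actin crosslinkers, fell by 2.07 and 2.45, with Actn1 dim on every leukemia array and at -1.86 with 16 added before the log. Vcl, an adhesion site protein, rose by 1.63 and Tpm1, a tropomyosin, rose by 0.59. Tpm1 did not pass without wild-type replicates 1, 2 or 3 (limma adjusted p = 0.0516, 0.0738 and 0.0550), with the replicate block (0.0542) and with the run (0.0730). A further probe set of Tpm1 rose by 0.97 (limma adjusted p = 0.00958). Tubb1, the platelet tubulin gene, was too dim to be tested. Of 26 signalling genes 11 rose and 6 fell (median 0.24). Grap2, an adaptor, rose by 3.54, was dim on every wild-type array and rose by 2.70 with 16 added before the log, and Prkca, a protein kinase C gene, rose by 2.66. Rgs18, a G protein regulator known from platelets, fell by 3.53 and the tyrosine kinase gene Syk fell by 2.55, which did not pass once wild-type replicate 2 was left out (limma adjusted p = 0.0504). Syk was spread over the leukemia arrays, and its change was -3.73 with the run as a covariate. A further probe set of Syk fell by 2.03 (limma adjusted p = 0.00262).

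Cd9 was set beside 19 tested tetraspanin and partner genes, of which 9 fell and 3 rose, with a median of -0.44. Tspan3 and Tspan2 fell by 4.17 and 3.78. Of the 9 that fell 3 were dim on every leukemia array, Tspan3 and Tspan2 among them. With 16 added before the log the changes of Tspan3 and Tspan2 were -3.59 and -2.81. Tspan8 and Tspan15 rose by 3.77 and 2.61. Igsf8, which encodes a direct partner of Cd9, fell by 1.03 (limma adjusted p = 0.0141). Leaving out wild-type replicate 2 or 3 ended that call (0.0612 and 0.0572). Of 7 tested genes around calmodulin, to which neurogranin binds, 2 rose and 0 fell (median 0.18), and with no filter on dim probe sets 2 rose and 2 fell of 11. The 2 tested genes that rose were the calcineurin genes Ppp3ca (0.60) and Ppp3r1 (0.32), and the call of Ppp3r1 was lost without wild-type replicates 1, 2 or 3 or leukemia replicate 3 (limma adjusted p = 0.0989, 0.0896, 0.0833 and 0.0707), with the replicate block (0.0664) and without the intensity trend (0.0669). A further probe set of Ppp3ca rose by 0.81 (limma adjusted p = 0.0188), while another had a change of 0.36 that did not pass (0.113). The further probe set of Ppp3r1 had a change of 0.31 that did not pass (limma adjusted p = 0.403), and its groups overlapped. Gp1bb, Itgb3, Itgb1, Itga6, Clec1b, Ppbp, Vwf, Selp, Tubb1, Rab27a, Igsf8, Fli1, Erg, Etv6, Gata1, Gata2, Kit, Cd34, Ptprc, Tek and Pecam1 were chosen for mention after their values were seen, as relatives, sort or cell type markers or well known platelet genes.

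**Figure D4:**
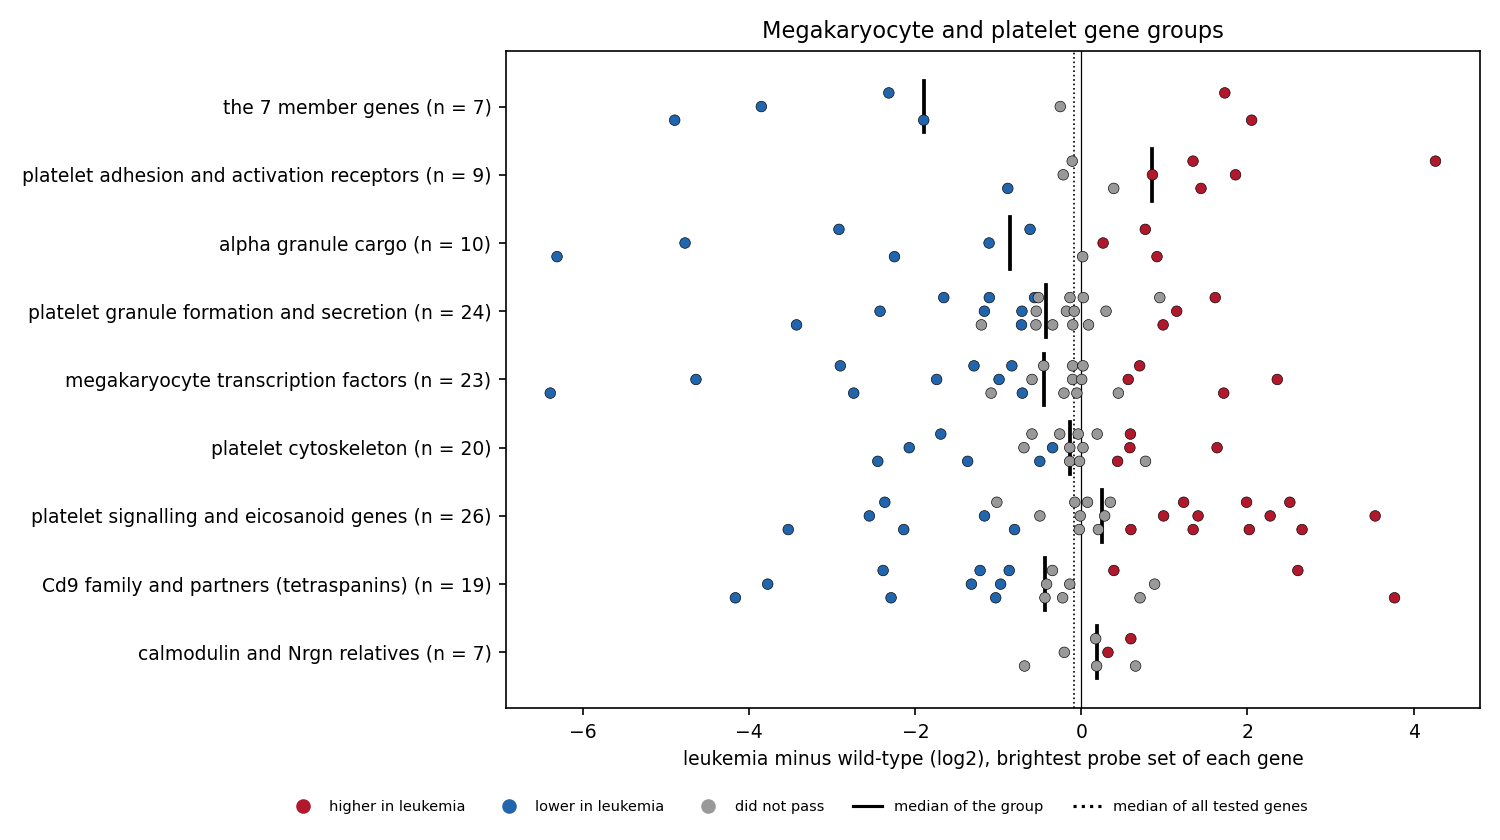
Leukemia minus wild-type change on the log2 scale of the 7 member genes and of each tested gene of 8 lists, by its brightest probe set. Red points were higher, blue points lower and grey points did not pass. Black bars mark each group's median, which runs from 0.86 in the adhesion and activation receptors to -0.86 in alpha granule cargo among the lists, and the dotted line marks the median of all tested genes, -0.09. The medians cover tested genes only, and in both of these lists the counts by direction changed with the filter on dim probe sets.

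Profiles like those of the members were sought over the 6 arrays as the smallest Euclidean distance between log2 values, each probe set centred on its own mean. With 2 groups on 6 arrays this likeness mostly reflects the size of the group difference. The nearest gene was Rgs18 for Pf4 (distance 0.51, change -3.54 for that probe set of Rgs18), Cnksr3 for Cd9 (0.67), Sik1 for Itga2b (0.35) and Ptpn3 for Gp9 (0.18). Among the risen members, the nearest was Tmem9 for Gp5 (0.34) and Nav1 for Rab27b 1417214_at (0.17), and for Nrgn it was Stx3 (0.28). The second nearest were H2-Ob for Pf4 (0.64), Anxa3 for Cd9 (0.82), Rnls for Itga2b (0.37), Bphl for Gp9 (0.26), St3gal6 for Gp5 (0.34), Fryl for Rab27b (0.20) and S1pr1 for Nrgn (0.31).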

How the data were processed

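The authors' deposited table holds intensity values on a linear scale, from 3.31 to 18869, made with RMA per the submitters' processing notes. Background, scaling and version are not given in the sources used here. Per the labels each sample was 1 array, labelled from 200 ng of RNA. Precision is limited by the number of arrays (6). All 6 columns were mapped, and the array run records (2 fluidics runs by their hybridization entry, 1 chip lot) served as a covariate only. Median intensity per array ran from 71.6 to 79.9. Of 28821 probe sets 23750 had 1 symbol in the platform annotation, 677 several and 4355 none, and 39 were controls and left out.

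Values were taken to log2 with no pseudocount. All 18098 probe sets at or above the array's 40th percentile on at least 3 arrays were fitted in limma (version 3.58.1, R 4.3.3) by lmFit and trended eBayes. Tests were two-sided, with Benjamini-Hochberg adjustment over all tested and a threshold of 0.05. For single measures an exact permutation test was run (scipy 1.17.1). The procedure was tested on simulated data, and the simulated spread was changed from the raw to the moderated variance after a first version had recovered fewer of the changes. The fit itself was not altered. Alternatives covered the filter, a pseudocount, normalization, centring, the unit of the fit, moderation, weights, the replicate number, the fluidics run and each array left out. Members and lists were chosen with earlier results of these data known. From each list up to 2 genes per direction were named, by size of change, among called genes with separate groups. Sequences are RefSeq's (GRCm38.p6), and the motif words were chosen after the member sequences had been seen. Figures were drawn with matplotlib 3.10.9.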

Additional observations from a re-analysis of the deposited data

How the results depend on the processing

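Each of the 7 called member probe sets kept its direction and call under all 17 alternatives that could test it, and 7 were called in each leave-one-out fit. The 2 uncalled ones stayed uncalled, and the change of Nrgn ran from -0.66 without leukemia replicate 3 to 0.23 without leukemia replicate 2. Over the whole table the count of 6946 ranged from 4393 to 8105 with 1 array left out. With 1 row per gene it was 4089, where fewer features were tested. With the replicate block the count was 5823, and 7 member probe sets were called. The values gave no sign that the replicate numbers pair the samples. Same-numbered arrays correlated at -0.09, 0.04 and 0.01 in their deviations from the group means, and other-numbered arrays at -0.13 to 0.10. Of 41 genes outside the members that were followed through the alternatives 8 lost their call under at least 1 of them. Itga6 gained a call under 2 alternatives, among them the fit without leukemia replicate 2. Dim signal limits the sizes for Cd9, Pf4 and Gp9 in leukemia.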
